A study of Lactuca sativa with 18 samples.

Results

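The gene set described here holds 100 genes of romaine lettuce (Lactuca sativa). Their RNA fell over 3 days of cold storage in cut midribs of the cultivars Tall Guzmaine (TG) and Clemente (CL). In Parris Island Cos (PC) their mean level changed little on the scale used for the choice. The members were chosen from the measured values among 46150 GeneIDs, the gene numbers of NCBI. Each gene's level was taken as log2(CPM + 1), where CPM is the count per 1000000 counts of a library. A gene was kept if its mean level in PC changed by less than 0.5 from day 0 to day 3, which held for 34679 GeneIDs. The score was the lowest day 0 level minus the highest day 3 level, taken in TG and in CL, the smaller of both being used. The 100 highest scores gave the members, out of 1316 flat GeneIDs with a score above 0. The storage change in each cultivar is therefore fixed by the choice and is given as a description; where calls of the fit across all genes are printed for it, nothing is read from them.

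RNA was sequenced from leaf midribs, the thick central ribs of the leaves. Per the labels, TG browns to a high degree, PC has a low browning potential, and CL, a selection from a PC and TG cross, is intermediate. Heads were cooled and trucked under refrigeration before their midribs were cut up by knife, and the pieces were held in cold storage and frozen on day 0 or on day 3. Each of the 6 groups of cultivar and day used here had 2 libraries. Whether the libraries of a group are different heads or repeats is not in the labels, and every p-value here reflects just the spread among libraries, which can be technical. All groups had been cut and cooled alike and no uncut midrib is among them, so cutting and cold storage cannot be told apart.

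Browning of cut lettuce is an enzymatic process: cutting breaks cells, phenolic compounds made through the phenylpropanoid pathway meet polyphenol oxidases and peroxidases, and the oxidised phenols polymerise into brown pigments. Wounding and cold each set off broad changes in a leaf's RNA, in which genes of growth and primary metabolism often decline while stress genes are induced. The reference table used here pairs the GeneIDs with locus symbols and gives no products, so the members are named by symbol and no role is given to any of them. In bulk tissue, fewer cells of a type and less RNA per cell cannot be told apart.

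The 12 libraries held 35603537 to 59153901 counts. Levels in the text are CPM on library sizes adjusted by TMM, a scaling that aligns the bulk of genes between libraries. The TMM factors were 0.7804 and 0.7937 in CL on day 0 and 0.9773 to 1.1666 in the other libraries. Without this scaling, the median log2 difference over all 21757 genes tested was -0.36 for CL against PC over both days, -0.24 for CL against TG and -0.13 for TG against PC. The PC day 0 libraries differed from each other at most members, with replicate 1 higher in 90 of 100. The PC change and the choice of members are also given with each of these libraries left out. Other results that rest on them are not all split in this way.

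In TG, the median over the members of the mean level fell from 41.4 CPM on day 0 to 5.34 CPM on day 3. In CL it fell from 85.6 to 10.2 CPM. In PC it was 7.5 CPM on day 0 and 5.88 CPM on day 3. PC midribs on day 0 thus already had a median near that which the other cultivars had on day 3. The members spanned a wide range of abundance, from 1.75 to 808 CPM in the TG day 0 means. The median log2 change by storage was -2.56 in TG, -3.09 in CL and -0.21 in PC. The fit across all genes called 99 members lower on day 3 in TG and 0 higher, where 13.8% and 13.6% of all genes were called. In CL it called 100 lower and 0 higher, where 15.5% and 16.5% were called. The choice of members set these counts, since it used the same libraries, so they test nothing.

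**Figure D1:**
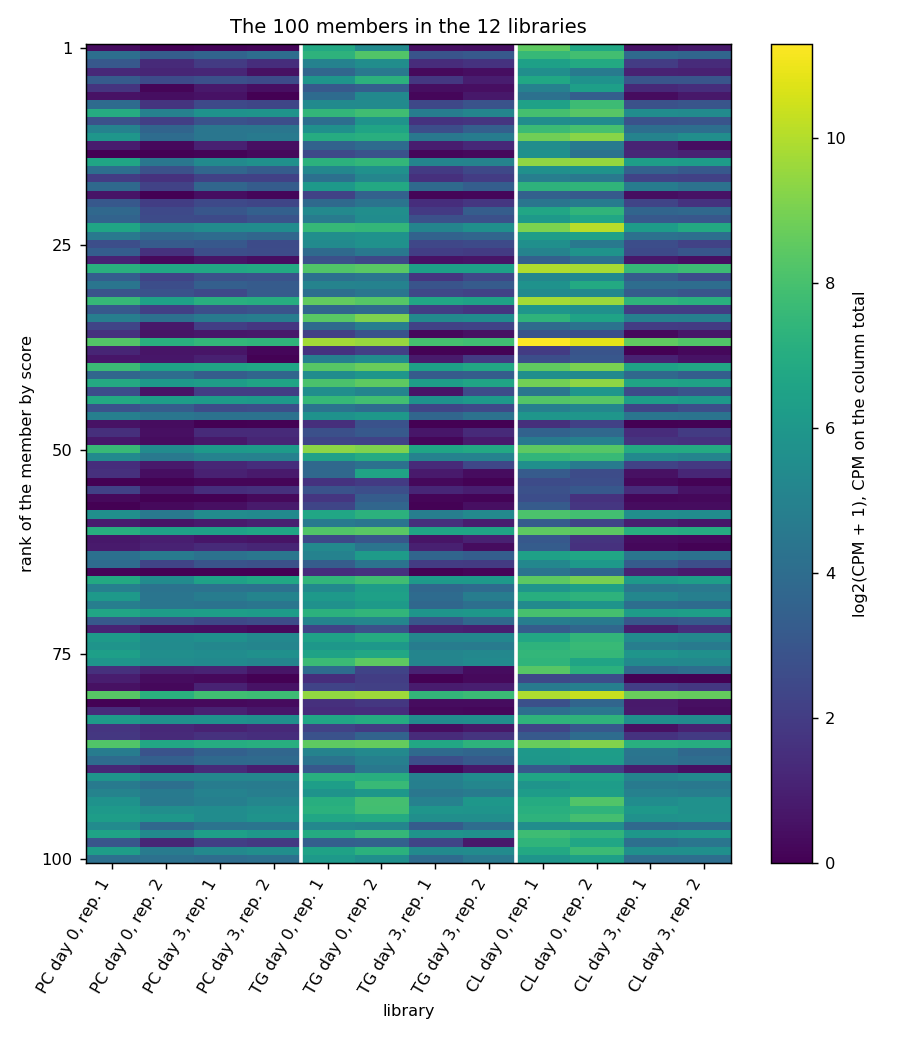
Level of the 100 members (rows, by score) in the 12 libraries (columns), as log2(CPM + 1) with CPM on the column total. Within most rows the TG and CL day 0 libraries are the highest, while the PC libraries of both days resemble the day 3 libraries of TG and CL.

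The member with the highest score, 4.90, was LOC111901499. Its TG libraries of day 0 held 112 and 41.6 CPM, against 0.386 and 0.332 CPM on day 3. In CL it stood at 462 and 134 CPM on day 0 and at 0.481 and 0.676 CPM on day 3. In PC it had 0.278 and 0 CPM on day 0 and 0.0713 and 0.0965 CPM on day 3. The gene was thus abundant in fresh TG and CL midribs and nearly silent in every other group, PC day 0 included. The ratio of the day 0 to the day 3 mean was 214 in TG and 515 in CL, although its day 0 libraries differed widely within both cultivars.

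LOC111909434 had the next score. Its TG libraries had 159 and 308 CPM on day 0 and 6.44 and 7.30 CPM on day 3. Its CL libraries had 242 and 296 CPM on day 0 and 14.4 and 11.99 CPM on day 3. In PC its level was 14.2 and 7.75 CPM on day 0 and 10.5 and 13.9 CPM on day 3, so the PC groups overlapped each other and lay close to the stored CL midribs. Fresh TG and CL overlapped each other and lay far above all PC libraries.

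LOC111898348 reached 31.9 and 46.0 CPM in fresh TG midribs and 1.62 and 2.03 CPM in stored ones. Its CL values were 108 and 145 CPM on day 0 and 3.09 and 1.63 CPM on day 3, so that fresh CL lay above fresh TG without overlap. In PC the day 0 libraries disagreed, at 6.81 and 1.30 CPM, and enclosed the day 3 values of 2.71 and 1.64 CPM. The flat mean of this member in PC therefore covers a replicate gap larger than any shift between the days.

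LOC111884168 fell from 12.4 and 23.5 CPM to 0.231 and 0.332 CPM in TG. In CL it fell from 60.1 and 30.6 CPM to 1.13 and 1.07 CPM. Its PC libraries had 1.30 and 1.06 CPM on day 0 and 1.21 and 0.386 CPM on day 3, a range that overlaps stored CL and lies above stored TG. LOC111912265 reached 59.5 and 155 CPM in fresh TG and 133 and 66.4 CPM in fresh CL, so those groups overlapped. On day 3 it had 2.47 and 0.830 CPM in TG and 6.87 and 6.92 CPM in CL. PC held it at 7.44 and 4.05 CPM on day 0 and at 5.35 and 4.58 CPM on day 3, above stored TG in all 4 libraries.

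LOC111876832 differed most between the browning cultivars among these first members, at 7.92 and 9.94 CPM in fresh TG against 38.4 and 102.6 CPM in fresh CL. After storage it stood at 0.308 and 0.373 CPM in TG and at 1.48 and 1.80 CPM in CL. Its PC values of 2.04 and 0.0963 CPM on day 0 were the most unequal pair among these 6 genes apart from the pair with a 0, and on day 3 PC had 0.642 and 0.338 CPM. Among the next 6 by score, the ratio of day 0 to day 3 means was 70.7 in TG and 34.6 in CL for LOC111879684, 8.20 and 29.4 for LOC111904236, and 7 and 8.44 for LOC111877418. It was 16.8 and 8.66 for LOC111878184, 10.5 and 18.3 for LOC111905399, and 5.84 and 17.2 for LOC111886468. Neither browning cultivar had the larger ratio throughout: it was larger in TG for 5 of the first 12 members and in CL for 7.

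**Figure D2:**
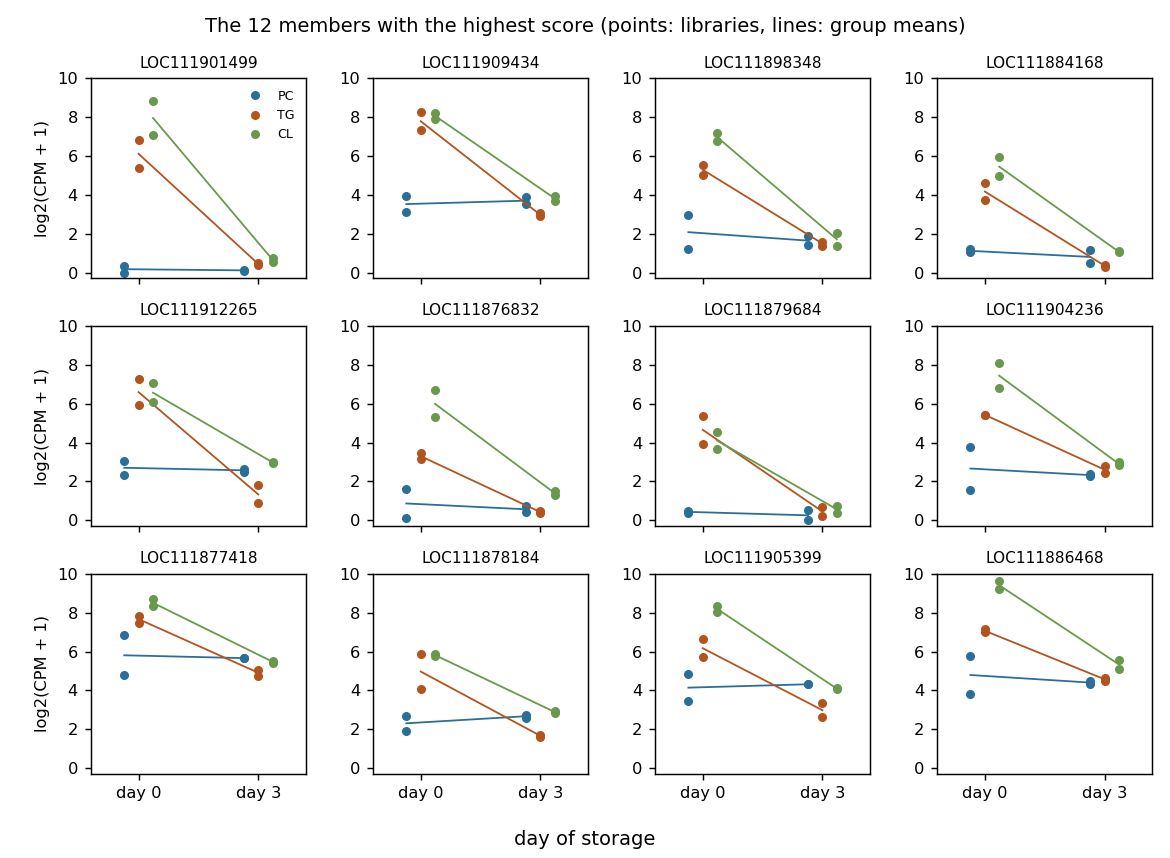
Level of the 12 members with the highest scores in each library, as log2(CPM + 1), by cultivar and day, with 1 point per library. In all 12 panels the day 0 libraries of TG and CL lie above the PC libraries.

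The level of PC was placed between stored and fresh midribs of the browning cultivars, with 0 at the mean of TG and CL on day 3 and 1 at their mean on day 0, on the log2(CPM + 1) scale. Averaged over its 4 libraries, PC had a median position of 0.06 over the members, from -0.41 to 0.44. It lay below 0 for 46 members, from 0 to 0.25 for 44, and at 0.25 or more for 10. No member had PC above 0.5. With CPM on TMM-adjusted sizes, a comparison added after the data were seen, the median position was 0.004 and 98 members lay under 0.25. The rule asked only that PC be steady, not that it be low, although a gene with few counts meets a limit of 0.5 on this scale more easily.

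All 4 PC libraries lay below all 4 fresh TG and CL libraries in 98 of the 100 members, against 6.19% of all genes tested. The members were chosen by high levels in those same fresh libraries, so this count follows in part from the rule and tests nothing. The exceptions, named after their values were seen, were LOC111876244 and LOC111899663. LOC111876244 had 13.2 and 3.42 CPM in PC on day 0 against 9.17 and 19.2 CPM in TG. LOC111899663 had 38.6 and 11.1 CPM in PC against 37.9 and 35.3 CPM in TG. In both, the higher PC library was replicate 1, and the other PC day 0 library lay below fresh TG and CL.

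**Figure D3:**
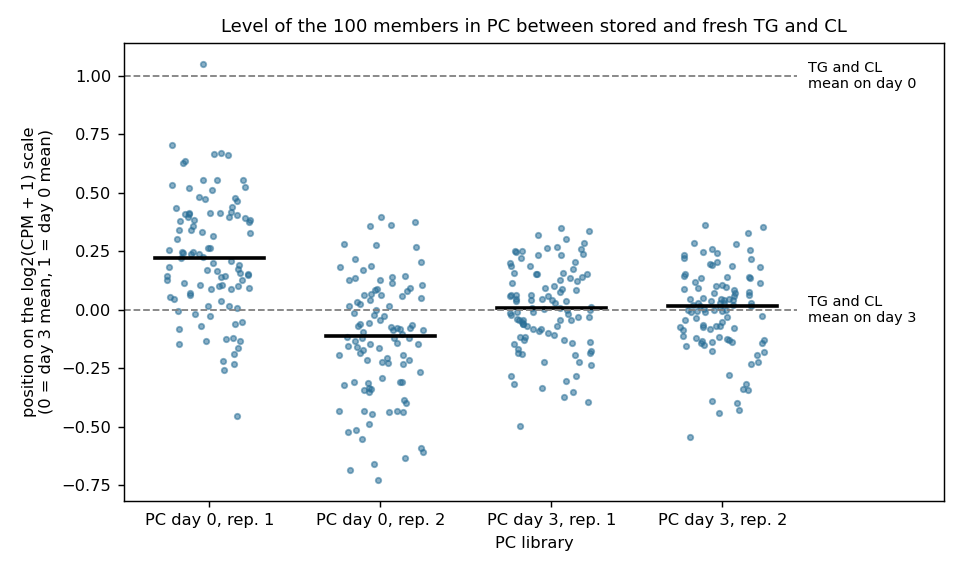
Position of each PC library between stored (0) and fresh (1) TG and CL midribs for the 100 members, on the log2(CPM + 1) scale, with 1 point per member and a bar at the median. The medians were 0.223 and -0.111 on day 0 and 0.007 and 0.016 on day 3.

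The 2 PC day 0 libraries bracketed the stored level. Replicate 1 had a median position of 0.223 and lay over 0.5 for 14 members, while replicate 2 had a median of -0.111 and lay over 0.5 for 0. Replicate 1 was higher than replicate 2 by a median of 0.68 (log2), and by more than 1 for 39 members. Over all genes tested replicate 1 was higher in 45.9%, with a median difference of -0.01. The replicates of PC on day 3 were level, with replicate 1 higher in 48 members. In TG on day 0 the difference ran the other way, with replicate 1 higher in 19 members and a median of -0.35.

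The split was not particular to genes that were flat in PC. Of the 504 GeneIDs whose gaps in TG and CL were at least as large as at the last member, 366 fell in PC by 0.5 or more, 38 rose and 100 were the members. PC day 0 replicate 1 was the higher library in 77.3% of the 366 genes, with a median difference of 0.48, and in 34 of the 38. In a mirror set, the 100 genes raised most by storage in TG and CL by the same rule turned around, replicate 1 was higher in 10, with a median of -0.50. Whether RNA quality, handling or the heads sampled differ between these libraries was not tested.

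Flatness in PC depended on averaging these libraries for most members. Against replicate 1 alone, the PC change stayed under 0.5 for 46 members, with 53 falling by 0.5 or more and 1 rising, and the median change was -0.53. Against replicate 2 alone it stayed under 0.5 for 62 members, with 36 rising and 2 falling, and the median change was 0.29. For 21 members both happened, a fall against replicate 1 and a rise against replicate 2. The fit across all genes called 2 members higher on day 3 in PC (21.5% of all genes) and 1 lower (18.1%). The limit of 0.5 on the PC change, taken in these same libraries, set that these counts are low, so nothing is read from them.

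The members called in PC all had few counts and are named after their values were seen. LOC111914601 had 0 counts in both PC day 0 libraries and 4 and 8 counts on day 3. LOC111916469 had 18 and 10 counts on day 0 and 0 and 2 on day 3. LOC111910750 rose from 0.371 and 0.145 CPM to 0.998 and 0.434 CPM. On the log2(CPM + 1) scale of the rule each of these changes stayed under the limit of 0.5.

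Steady against both PC day 0 libraries were 29 members. Among them PC had a median position of -0.006, and all 4 PC libraries lay below fresh TG and CL in 29, against 6.19% of all genes. By edgeR's quasi-likelihood test over both days, 21 of the 29 were higher in TG than in PC (12.1% of all genes). In CL 26 were higher (19.1%). These counts are not free of the rule, which chose members by high levels in fresh TG and CL. Of these 29, 12 had a PC mean under 1 on the log2(CPM + 1) scale, where a change is hard to see.

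**Figure D4:**
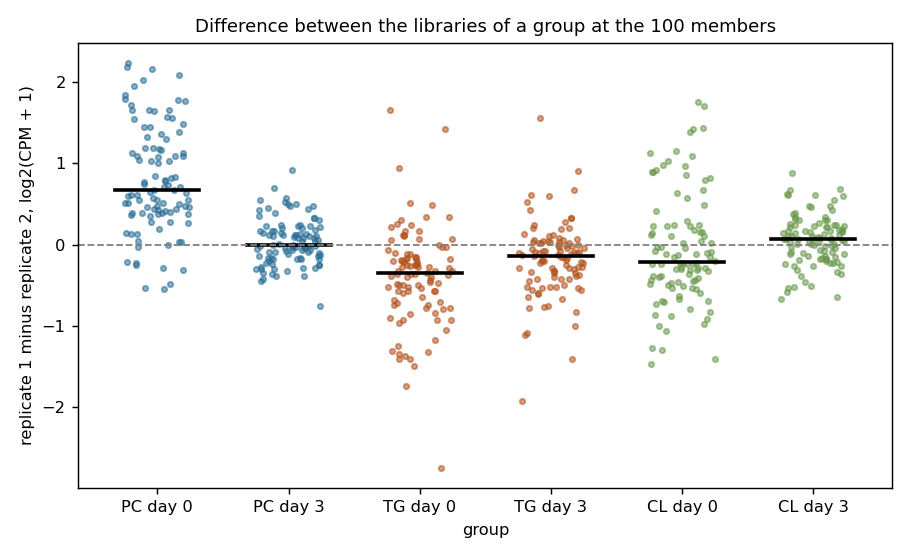
Difference between replicate 1 and replicate 2 of each group at the 100 members, in log2(CPM + 1), with 1 point per member and a bar at the median. The PC day 0 points lie mostly above 0, with a median of 0.68, and those of TG day 0 mostly under it, with a median of -0.35.

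The cultivars were then compared over both days, a difference that does not enter the score but is not free of the rule, since members had to be well expressed in fresh TG and CL. TG was above PC in 50 members and below in 0, against 12.1% and 8.45% of all genes, by edgeR's quasi-likelihood test with Benjamini-Hochberg adjustment over all genes. At an unadjusted p under 0.05, 69 members differed. For unadjusted counts, here and below, no share over all genes is given. They cannot be set against the bulk of genes, so nothing is read from them. The shares printed belong to adjusted calls. DESeq2 called 63 members, where it called 27.1% of all genes in either direction. The median log2 difference was 0.97 over the members and 0.00 over all genes, and the fitted difference was positive in 95. The count moved with single libraries: it was 30 or 31 when either PC day 3 library was omitted and 32 when TG day 3 replicate 2 was. Calls over all genes in either direction were then 11%, 10.9% and 12.8%. Omitting PC day 0 replicate 1 gave 76 members, with 22.1% of all genes called.

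CL was above PC in 89 members and below in 0, against 19.1% and 17.6% of all genes. DESeq2 called 90, where it called 42.1% of all genes. The median log2 difference was 1.71 over the members and -0.03 over all genes, with a positive value in 99. Leaving out each library in turn gave 81 to 92 members. In the mirror set of storage-raised genes the calls lay on the other side, with TG higher than PC in 2 and lower in 50, and CL higher than PC in 2 and lower in 80. These comparisons share the PC libraries, and the mirror set was chosen in the same libraries by the rule turned around. The direction of the mirror set is therefore not free of the rule, and nothing is read from it.

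The differences on each day share libraries with the storage changes that chose the members, so the rule sets that TG and CL fall against PC from day 0 to day 3. It does not set on which day the gap to PC is wide. That is still not free of the rule, since members had to be well expressed in fresh TG and CL. The differences are given as values, with nothing read from the calls. On day 0, 88 members were higher in TG than in PC (17.2% of all genes) and 0 lower (13.1%). Against PC, 99 were higher in CL (23.8%) and 0 lower (21.9%), with median log2 differences of 2.04 for TG and 3.10 for CL. On day 3, edgeR's quasi-likelihood test called 0 members between TG and PC, where 0.722% of all genes were higher and 0.731% lower in TG. At an unadjusted p under 0.05, 3 were higher and 15 lower in TG, and DESeq2 called 1 higher and 2 lower, where it called 3.83% of all genes. The day 3 median was -0.22, and its median size was 0.42 against 0.32 over all genes. Few genes of any kind passed on day 3, so a count of 0 does not show equal levels.

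Between CL and PC on day 3, 3 members were higher in CL (0.515% of all genes) and 0 lower (0.4%), with 17 at an unadjusted p under 0.05 and 8 by DESeq2, which called 3.24% of all genes. The median log2 difference was 0.30. The 3 were LOC111919006 with a log2 difference of 0.96, LOC111897952 with 4.16, and LOC111902863 with a fitted 8.46, all named after their values were seen. The last of these had 0 counts in both PC day 3 libraries, so its fitted value depends on the prior count and is no bound. Against the floor of 3 counts per library, it was at least 15.1-fold higher in stored CL.

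The largest differences from PC over both days belonged to members that PC hardly expressed. LOC111914601 was 5.74 ± 0.75 (log2, SE; adjusted p 0.00114, edgeR) higher in TG and 8.62 ± 0.62 (adjusted p 3.6e-05) higher in CL. Its libraries held 4.72 and 6.27 CPM in fresh TG and 62.8 and 22.2 CPM in fresh CL. PC on day 0 had 0 counts, so the fitted differences over both days depend on the prior count. Against the floor of 3 counts per library, fresh TG was at least 77.5-fold and fresh CL at least 600-fold higher. After storage the gene was still at 1.41 and 1.13 CPM in CL, above the 0.154 and 0.207 CPM in TG and the 0.0713 and 0.193 CPM in PC.

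LOC111901499, the member with the highest score, was 5.58 ± 0.78 (adjusted p 0.00128, edgeR) higher in TG than in PC and 6.88 ± 0.75 (adjusted p 0.000183) higher in CL. Without PC day 0 replicate 1, which held 12 of its 20 PC counts, these values were 8.44 and 9.73. LOC111902863 was 4.78 ± 1.16 (adjusted p 0.0195) higher in TG and 8.57 ± 0.82 (adjusted p 0.000134) higher in CL. In PC it had 4 counts in day 0 replicate 1 and 0 in the other 3 libraries, so these fitted differences too depend on the prior count. Its TG difference lost its call without TG day 3 replicate 2, at 2.63 with an adjusted p of 1.0, and without PC day 3 replicate 1, at an adjusted p of 0.0568. The CL difference was 10.67 without PC day 0 replicate 1. Fresh TG had 1.79 and 2.06 CPM of this gene and fresh CL 24.9 and 16.0 CPM, at least 30.6-fold and 325-fold above PC on day 3.

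LOC111916886 had the next largest called difference between TG and PC, at 3.92 ± 0.65 (adjusted p 0.00321, edgeR). It stood at 28.4 and 45.6 CPM in fresh TG, 6.84 and 9.36 CPM in fresh CL, and 0.556 and 0.506 CPM in fresh PC. Stored midribs had 0.733 and 2.61 CPM in TG, 1.13 and 0.450 CPM in CL, and 0.909 and 0.0482 CPM in PC. Its 3 stored groups overlapped, while its fresh groups stood in the order TG, CL, PC with no overlap.

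Calls over both days were not confined to members with a low PC level. The PC mean was under 1 on the log2(CPM + 1) scale in 24 members. Of these, 14 were higher in TG and 18 higher in CL. Of the other 76, 36 were higher in TG and 71 higher in CL. Over all genes the shares were 12.1% for TG and 19.1% for CL. Members had to be well expressed in fresh TG and CL, so these counts are not free of the rule. No PC library exceeded 2.04 CPM in the 24 members, whose median level was 5.41 CPM in fresh TG and 11.3 CPM in fresh CL. Stored midribs had medians of 0.332 CPM in TG and 0.547 CPM in CL. Single libraries reached 2.61 CPM in stored TG and 3.26 CPM in stored CL, above the highest PC library. GeneID_111891973, without a symbol and named after its values were seen, had 1 count in PC on day 0 against 240 in fresh TG and 507 in fresh CL. The ratios were 209 (95% counting interval 37.2 to 8289) and 563 (100.7 to 22300), intervals that cover counting error only.

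Between the browning cultivars, CL held more of the members' RNA than TG. Over both days 40 members were higher in CL and 2 lower, against 8.77% and 9.41% of all genes (edgeR's quasi-likelihood test, adjusted p under 0.05), and DESeq2 called 53 and 4, where it called 26% of all genes in either direction. The median log2 difference was 0.80 over the members and -0.04 over all genes, and it was positive in 85. The total of 42 dropped to 22 if the first CL day 3 library was left out and to 25 if the first TG day 3 library was. It reached 57 if the second PC day 0 library was. Over all genes 7.14%, 12.5% and 20.6% were called in these fits. The score was the smaller gap of both cultivars, and TG had that smaller gap in 72 members.

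The CL lead stood on both days. On day 0 both CL libraries lay above both TG libraries in 70 members (27.9% of all genes), below them in 7 (30.2%), and overlapped in 23. On day 3 the counts were 62 above (23.6%), 5 below (23.1%) and 33 overlapping. The median log2 difference was 1.07 on day 0, where 39 members were called higher (10.2% of all genes) and 1 lower (10.9%). It was 0.55 on day 3, where 3 were called higher (0.533%) and 0 lower (0.253%), with 32 at an unadjusted p under 0.05 and 12 by DESeq2, which called 3.33% of all genes. The day 0 total of 40 dropped to 20 if CL day 0 replicate 2 was omitted and to 21 if TG day 0 replicate 1 was, with 11.4% and 14% of all genes called. The fitted fall by storage was larger in CL for 69 members and in TG for 31, and on the column-total scale the stored levels ranked highest in CL for 60, in PC for 30 and in TG for 10.

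**Figure D5:**
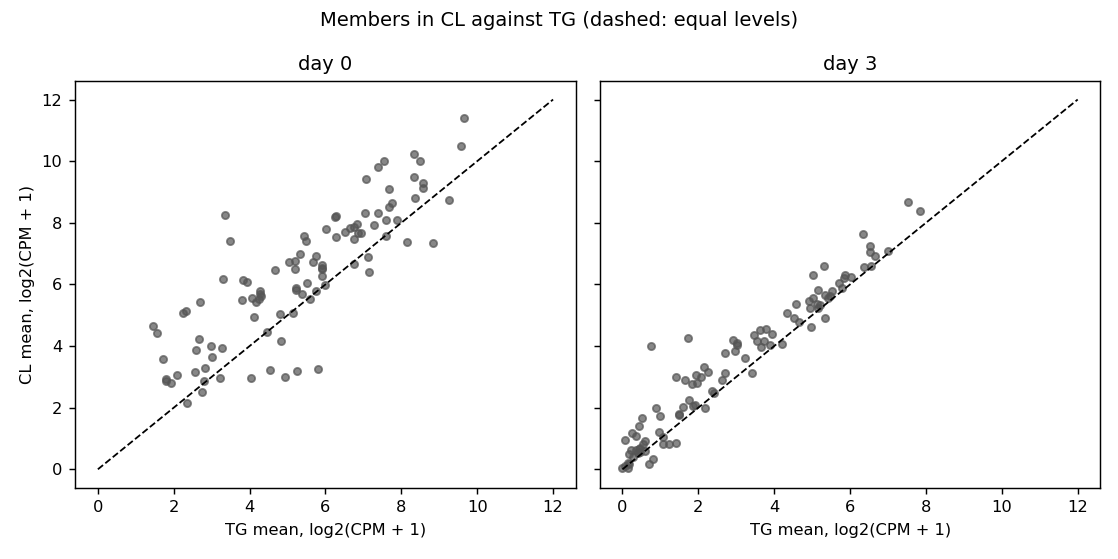
Mean level of the 100 members in CL (y axis) against TG (x axis) on each day, in log2(CPM + 1) with CPM on TMM-adjusted sizes, with 1 point per member and a dashed line of equal levels. Most points lie above the line on both days. The panels share their axes, and the points lie lower on both axes on day 3.

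LOC111897952 differed most between CL and TG, by 4.75 ± 0.55 (log2, SE; adjusted p 0.000829, edgeR) over both days. It had 423 and 186 CPM in fresh CL against 14.5 and 3.94 CPM in fresh TG. In stored midribs it had 13.8 and 16.1 CPM in CL and 1.06 and 0.290 CPM in TG. PC had 1.74 and 0.867 CPM on day 0 and 1.11 and 0.531 CPM on day 3. Stored CL therefore overlapped fresh TG, and PC overlapped stored TG. Against PC, the CL difference over both days was 6.01 ± 0.58 (adjusted p 0.000114).

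LOC111897586 was higher in CL than in TG by 3.52 ± 0.57 (adjusted p 0.00373, edgeR). Its fresh levels were 210 and 129 CPM in CL, 9.82 and 10.7 CPM in TG, and 6.21 and 1.11 CPM in PC. After storage it had 16.7 and 20.0 CPM in CL, 3.93 and 0.664 CPM in TG, and 2.96 and 2.41 CPM in PC. Stored CL thus lay above fresh TG for this gene, without overlap. LOC111902863 and LOC111914601, both near 0 in PC, were higher in CL than in TG by 3.79 ± 0.57 (adjusted p 0.00293) and 2.88 ± 0.39 (adjusted p 0.00178). Without TG day 3 replicate 2 the difference of LOC111902863 was 5.93.

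TG led in few members, which are named after their values were seen. LOC111881860 was lower in CL by 0.97 ± 0.24 on the log2 scale (adjusted p 0.0203, edgeR). It had 341 and 569 CPM in fresh TG, 206 and 116 CPM in fresh CL, and 24.4 and 13.9 CPM in fresh PC. After storage it stood at 37.3 and 41.7 CPM in TG, 29.6 and 28.3 CPM in CL, and 22.1 and 24.2 CPM in PC, so TG remained the highest on both days. LOC111914487 was lower in CL by 2.16 ± 0.58 (adjusted p 0.0307). Fresh TG had 39.1 and 20.0 CPM of it, fresh CL 11.3 and 2.53 CPM and fresh PC 0.695 and 0.963 CPM, and in stored midribs PC, at 1.43 and 1.16 CPM, was above both TG and CL.

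The 5 members over 1000 CPM on average in fresh CL changed by smaller ratios than the first by score, and are named after their values were seen. LOC111893255 was the most abundant, with 3204 and 2251 CPM in fresh CL and 850 and 767 CPM in fresh TG. It had 373 and 296 CPM in stored CL and 242 and 212 CPM in stored TG. In PC it had 272 and 122 CPM on day 0 and 161 and 151 CPM on day 3. Its day 0 to day 3 ratio was 3.57 in TG and 8.16 in CL, and PC day 3 was below stored TG and CL.

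LOC111919006 had well-matched replicates, with 302 and 341 CPM in fresh TG, 1245 and 1137 CPM in fresh CL, and 127 and 91.6 CPM in fresh PC. Its stored levels were 82.5 and 78.7 CPM in TG, 188 and 211 CPM in CL, and 100.5 and 104.3 CPM in PC. It was called higher in stored CL than in stored PC, by 0.96 (log2), and than in stored TG, by 1.31. Between stored CL and TG the other calls were LOC111897952, by 4.45, and LOC111899312, by 1.42. LOC111912378, LOC111905567 and LOC111910343 had ratios of 4.85, 3.93 and 4.16 in TG and of 10.7, 6.83 and 3.51 in CL. For these 3 genes, PC day 0 replicate 1 was the higher PC library by more than 2-fold, at 87.9 against 29.5 CPM, 168 against 75.1 CPM, and 291 against 124 CPM.

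Values around the limit of the choice were close. LOC111897586, LOC111899401 and LOC111898081, the last members, had scores of 1.09, 1.08 and 1.08. LOC111879801, LOC111907888 and LOC111887045, the first left out, had 1.08, 1.07 and 1.07. With a PC limit of 0.25, 51 of the members were retained, and with a limit of 1, 58 were among the 100 highest scores. With PC day 0 replicate 2 left out 46 were chosen again, and with replicate 1 left out 58.

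In the gene order of the NCBI table for assembly Lsat_Salinas_v11, which names 98 of the members, none stood within 10 genes of another, so they were scattered. LOC111913162, LOC111903507 and LOC111889803 overlap another gene of that table, and reads of overlapping genes may not be separated, as no source used here states the strand setting of the counting.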

How the data were processed

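RNA of lettuce midribs was sequenced as paired reads. Per the submitters' processing notes, the tools were STAR 2.4.0i and featureCounts, with Trim Galore, FastQC, DESeq2 and R 3.6.1, in no stated order. No source used here states the genome build or the strand setting. The authors' deposited files hold raw counts for 64021 rows, which were summed over 46150 GeneIDs (7574 stood on more than 1 row). Of values of 100 or more, 68.4% to 74.6% were even, so fragments may be fewer than counts.

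Day 2 columns deposited by the authors were taken as a derived score and left untested. In 98.9% to 99.8% of rows with 200 or more counts they lay within 1 count of a scaled and shifted mean of day 0 and day 3.

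CPM for choosing members used column totals and a pseudocount of 1. Levels used TMM sizes. The 21757 genes kept by filterByExpr were fitted in edgeR 4.0.16 (R 4.3.3) with 6 group means over 12 libraries by the robust quasi-likelihood method. Contrasts were adjusted by Benjamini-Hochberg at 0.05, and SEs were taken from the F statistic. The procedure was also run on simulated data for the comparisons over both days, with far fewer genes changed than were called in the real data. Nothing is read from that run. Alternatives were DESeq2 1.42.0, other scalings, filters and pseudocounts, omitted libraries and a replicate block.

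Members and lists were chosen with earlier results of these data known. The rule for named genes took the 12 highest scores, the 4 largest called differences over days per comparison and the 3 on either side of the limit. Other genes are named after their values were seen. Lists by product name, tissue markers and promoter motifs were not used here, so the midrib label was not checked against markers. Intervals and the floor of 3 counts per library cover counting error only.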

Additional observations from a re-analysis of the deposited data

How the results depend on the processing

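Counts of members moved most with single libraries. With each library left out in turn, TG against PC over both days gave 30 to 76 calls, CL against PC 81 to 92 and CL against TG 22 to 57. Calls over all genes moved too, from 10.9% to 22.1%, 24.2% to 36.4% and 7.14% to 20.6%. The storage change, whose calls the choice of members sets, gave 67 to 100 calls in TG, 85 to 100 in CL and 1 to 19 in PC. On day 0 the counts were 63 to 96, 92 to 99 and 20 to 57 in the same order of cultivars, and on day 3 they were 0 to 2, 0 to 9 and 0 to 7. For these counts by storage, on day 0 and on day 3, no share over all genes is given here. How far they moved is therefore not set against the bulk of genes, and nothing is read from it. The choice of members itself kept 46 to 96 of 100, with the lowest values for the PC day 0 libraries. A PC limit of 0.25 kept 51 and a limit of 1 kept 58. With only PC day 0 replicate 1 as the fresh sample, 46 members were flat in PC, and with only replicate 2, 62 were; this was added after the data were seen. DESeq2 called 3 members for TG against PC on day 3 (3.83% of all genes), 8 for CL against PC (3.24%) and 12 for CL against TG (3.33%). Without a filter on low counts, 1 was called for TG against PC on day 3 (1.47% of all genes). Fitting only the groups compared left 0 calls for storage in PC, where 37.9% of all genes were called. The limit on the PC change set that this count is low. The cause of these shifts was not tested.

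The replicate numbers did not pair the libraries: over 15 pairs of groups the replicate differences correlated from -0.086 to 0.067, 10 positive and 5 negative. With a replicate block, TG against PC over both days gave 48 calls (18.9% of all genes). CL against PC gave 89 (35.1%) and CL against TG 41 (16.6%). On day 3, CL against PC gave 1 (0.795%). Over the 36 fold changes of named genes and all alternatives, omitted libraries included, 638 of 648 refitted values held their direction and side of the threshold, 10 missed the threshold and 0 reversed. Most of these fold changes were the storage changes in TG and CL of the members with the highest scores. The choice of members set their direction, so nothing is read from their holding it. The other fold changes were picked as the largest called differences between cultivars. With 2 libraries a group, small differences and genes with few counts are beyond this depth of replication.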
